A study of Mus musculus with 9 samples.

Results

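Peroxisomes are small organelles that every cell uses to shorten fatty acids too long or too branched for mitochondria, and to carry out the opening steps of ether lipid synthesis. Their matrix enzymes are made in the cytosol and carried in by receptors that recognise short targeting signals: Pex5 binds the common signal at the carboxyl end, and Pex7 binds a rarer signal near the amino end. Plasmalogens, the main ether lipids of brain, are abundant in myelin, and loss of oligodendrocyte peroxisomes in mice leads to degeneration of myelin and axons. The 8 genes described here cover these jobs. Pex2, Pex5, Pex7 and Pex13 belong to protein import, Hsd17b4 and Scp2 to fatty acid oxidation, and Gnpat and Agps to plasmalogen synthesis. They were chosen with earlier results of these data known and were taken by gene symbol. All 8 were present among the 11315 genes measured in every library.

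RNA sequencing had been done on cells sorted by fluorescence from the brains of C57BL/6 mice at postnatal day 60, with 3 libraries in each of 3 groups. The groups were PDGFRa-GFP cells (labelled oligodendrocyte progenitors), PLP-GFP cells (labelled pre-myelinating oligodendrocytes) and NDRG1-eGFP cells (labelled myelinating oligodendrocytes). All groups shared strain, age and tissue and differed in the reporter, which labels every cell in which its promoter is active. Nothing in the labels ties a replicate to its own animal, and p-values therefore describe only how far these libraries scatter, which may be technical.

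The deposited values were normalized and on a log scale taken as base 2. Sequencing depth is unknown, so no counting interval can be given. Of 12 oligodendrocyte markers all were measured, and their share of the summed linear values was 9.38% to 11% in the PDGFRa-GFP group, 10.5% to 10.7% in the PLP-GFP group and 11.3% to 11.6% in the NDRG1-eGFP group. The 10 measured of 11 progenitor markers made up 0.120% to 0.172%, 0.172% to 0.202% and 0.161% to 0.178% in the same order of stages. Single progenitor markers differed more than this sum, which the most abundant of them decide: their log2 fold changes ran from -4.04 to 0.79 in NDRG1-eGFP against PDGFRa-GFP cells, with a median of -0.74, 1 called higher and 1 lower. They ran from -3.92 to 0.71 in PLP-GFP against PDGFRa-GFP cells, with a median of 0.18, 1 called higher and 1 lower. Oligodendrocyte markers were thus abundant in the libraries labelled as progenitors too, and the groups are called by their reporters. Libraries of 1 group correlated at 0.931 to 0.982 for PDGFRa-GFP, 0.975 to 0.985 for PLP-GFP and 0.939 to 0.964 for NDRG1-eGFP. PDGFRa-GFP replicate 3 stood apart from replicates 1 and 2, and results that rest on it are given with and without it. In bulk libraries such as these, fewer cells of a type and less RNA per cell cannot be told apart.

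Differences were tested with limma across all genes, with Benjamini-Hochberg adjustment, and a gene was called at an adjusted p under 0.05. Fold changes are on the log2 scale, the group named first minus the other, with the standard error of the fit. The 3 comparisons share libraries, so they are not independent of each other. Of the 8 genes, 4 differed among the groups in the overall F test (Pex7, Hsd17b4, Scp2 and Agps), against a background of 47.8% of all genes. Where libraries of different groups are said not to overlap, no share of all genes is given. Such statements only describe the values. Levels are compared between groups only and not between genes, because the sources used here do not state whether values were scaled for transcript length.

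The promoter sequences of Pex7, Scp2 and Agps are shown because these genes had the largest differences of the 8 between NDRG1-eGFP and PLP-GFP cells, in opposite directions. Each is the 250 bases before a RefSeq transcript start on GRCm38.p6, written 5′ to 3′ on the strand of the gene. Capitals mark the GC box GGGCGG, the CCAAT box CCAAT and the nuclear receptor half-site AGGTCA, each on either strand.
Pex7 (chr10:19907675-19907924, minus strand): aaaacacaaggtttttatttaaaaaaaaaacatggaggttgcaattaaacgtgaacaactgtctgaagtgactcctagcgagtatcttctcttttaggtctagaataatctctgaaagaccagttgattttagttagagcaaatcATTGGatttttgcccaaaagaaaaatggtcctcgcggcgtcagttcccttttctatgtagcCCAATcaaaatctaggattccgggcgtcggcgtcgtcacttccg
Scp2 (chr4:108118548-108118797, minus strand): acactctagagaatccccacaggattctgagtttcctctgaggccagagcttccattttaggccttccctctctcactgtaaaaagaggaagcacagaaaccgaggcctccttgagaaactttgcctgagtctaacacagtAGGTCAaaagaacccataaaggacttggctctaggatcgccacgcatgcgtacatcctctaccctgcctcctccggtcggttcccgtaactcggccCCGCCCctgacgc
Agps (chr2:75831927-75832176, plus strand): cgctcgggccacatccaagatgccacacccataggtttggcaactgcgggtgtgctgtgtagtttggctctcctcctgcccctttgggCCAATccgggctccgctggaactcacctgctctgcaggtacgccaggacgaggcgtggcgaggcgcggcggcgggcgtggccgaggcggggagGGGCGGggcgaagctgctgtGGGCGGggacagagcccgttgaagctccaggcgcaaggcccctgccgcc

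The 3 windows differed in base composition and in the motifs they held. GC content was 40.0% for Pex7, 53.6% for Scp2 and 70.0% for Agps, against a median of 52.4% over all 32851 promoter windows of the table. The Pex7 window held 2 CCAAT boxes and no GC box, and the Agps window held 1 CCAAT box and 2 GC boxes. The Scp2 window held 1 GC box and 1 half-site, the kind of element that PPAR and RXR receptors bind as repeats. It belongs to a transcript start inside the gene, well downstream of the outermost annotated start. In all promoter windows the GC box was found in 32.7%, the CCAAT box in 33.8% and the half-site in 14.0%. Of the 8 genes, 6 had a window in the table. The Gnpat window held 1 E-box (CACGTG, in 6.02% of all windows) and the Pex13 window 1 cAMP response element (TGACGTCA, in 1.55%).

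Among the import genes, Pex7 changed most. Pex7 is the receptor that carries Agps, the phytanic acid enzyme Phyh and the peroxisomal thiolase into the matrix. The gene lies on the minus strand of chromosome 10 (19853900 to 19907689, GRCm38). Its log2 values were 11.22, 11.27 and 11.43 in PDGFRa-GFP libraries, 10.92, 10.87 and 10.92 in PLP-GFP libraries, and 11.80, 11.76 and 11.51 in NDRG1-eGFP libraries. The libraries of the 3 groups did not overlap: every NDRG1-eGFP library was highest and every PLP-GFP library lowest.

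Pex7 averaged 11.69 ± 0.16 in NDRG1-eGFP cells and 10.90 ± 0.03 in PLP-GFP cells (SD, n = 3 each). The difference was 0.79 ± 0.13 (SE; limma adjusted p = 0.000966), or 1.73-fold. It was called without any 1 of the 9 libraries, with values of 0.73 to 0.88. Neighbouring groups in the order of levels were closer. Pex7 in PLP-GFP cells was 0.40 ± 0.13 log2 units below PDGFRa-GFP cells at 11.30 ± 0.11 (SD, n = 3), and this missed the threshold (limma adjusted p = 0.0580). Without PDGFRa-GFP replicate 3 that difference was -0.34 and was not called. NDRG1-eGFP cells were 0.38 ± 0.13 above PDGFRa-GFP cells, which also missed the threshold (limma adjusted p = 0.0616). The NDRG1-eGFP comparison with PDGFRa-GFP was called without PDGFRa-GFP replicate 3 (0.45, limma adjusted p = 0.0151) and without NDRG1-eGFP replicate 3 (0.48, limma adjusted p = 0.0478).

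Pex2 is a RING-finger subunit of the membrane ubiquitin ligase that marks Pex5 for return to the cytosol after it has unloaded its cargo. It lies on the minus strand of chromosome 3 (5560188 to 5576239). Log2 values of Pex2 were 13.07, 13.18 and 13.52 in PDGFRa-GFP libraries, 13.02, 12.86 and 12.80 in PLP-GFP libraries, and 13.35, 13.32 and 13.22 in NDRG1-eGFP libraries. All PLP-GFP libraries lay below all others, while PDGFRa-GFP and NDRG1-eGFP libraries overlapped.

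Pex2 averaged 13.30 ± 0.07 in NDRG1-eGFP cells and 12.89 ± 0.12 in PLP-GFP cells (SD, n = 3 each), a difference of 0.40 ± 0.14 (SE; limma adjusted p = 0.0318). This call depended on single libraries. It was lost without PLP-GFP replicate 2 (limma adjusted p = 0.0968), PLP-GFP replicate 3 (0.117), NDRG1-eGFP replicate 1 (0.0900) or NDRG1-eGFP replicate 2 (0.0812), and after recentring on the median ratio (0.0599). Removing the trend of each library on transcript length or on coding length also ended the call (-0.09 and 0.04). In PLP-GFP cells Pex2 was 0.36 ± 0.14 below the PDGFRa-GFP mean of 13.26 ± 0.23 (SD, n = 3), which was not called (limma adjusted p = 0.0868). NDRG1-eGFP and PDGFRa-GFP cells differed by 0.04, with a 95% interval of -0.26 to 0.34. Without PDGFRa-GFP replicate 3, the differences from PDGFRa-GFP were -0.23 for PLP-GFP and 0.17 for NDRG1-eGFP, and neither was called.

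The other import genes gave no called difference. Pex5, the receptor for most matrix enzymes (chromosome 6, 124396816 to 124415067, minus strand), had log2 values of 11.68, 11.76 and 11.71 in PDGFRa-GFP libraries, 11.74, 11.90 and 11.92 in PLP-GFP libraries, and 11.94, 11.80 and 11.81 in NDRG1-eGFP libraries. The PLP-GFP libraries overlapped those of both other groups, while every NDRG1-eGFP library lay slightly above every PDGFRa-GFP library. NDRG1-eGFP minus PLP-GFP was 0.00, with a 95% interval of -0.26 to 0.25 (limma adjusted p = 0.988). The largest of the 3 differences was 0.13, for PLP-GFP minus PDGFRa-GFP, with an interval of -0.12 to 0.39.

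Pex13 is a membrane protein at which loaded receptors dock (chromosome 11, 23646479 to 23665959, minus strand). Its log2 values were 11.93, 11.62 and 12.36 in PDGFRa-GFP libraries, 11.91, 11.99 and 11.93 in PLP-GFP libraries, and 12.15, 11.98 and 12 in NDRG1-eGFP libraries. The 3 PDGFRa-GFP libraries spanned the whole range of the other 6, with replicate 3 highest and replicate 2 lowest. NDRG1-eGFP minus PLP-GFP was 0.10, with a 95% interval of -0.28 to 0.48 (limma adjusted p = 0.663). Without PDGFRa-GFP replicate 3, the differences from PDGFRa-GFP were 0.17 for PLP-GFP and 0.27 for NDRG1-eGFP, against -0.03 and 0.07 with it, and neither was called. Of its 50-base transcript windows, 1.98% also occur in a processed pseudogene, Pex13-ps.

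**Figure D1:**
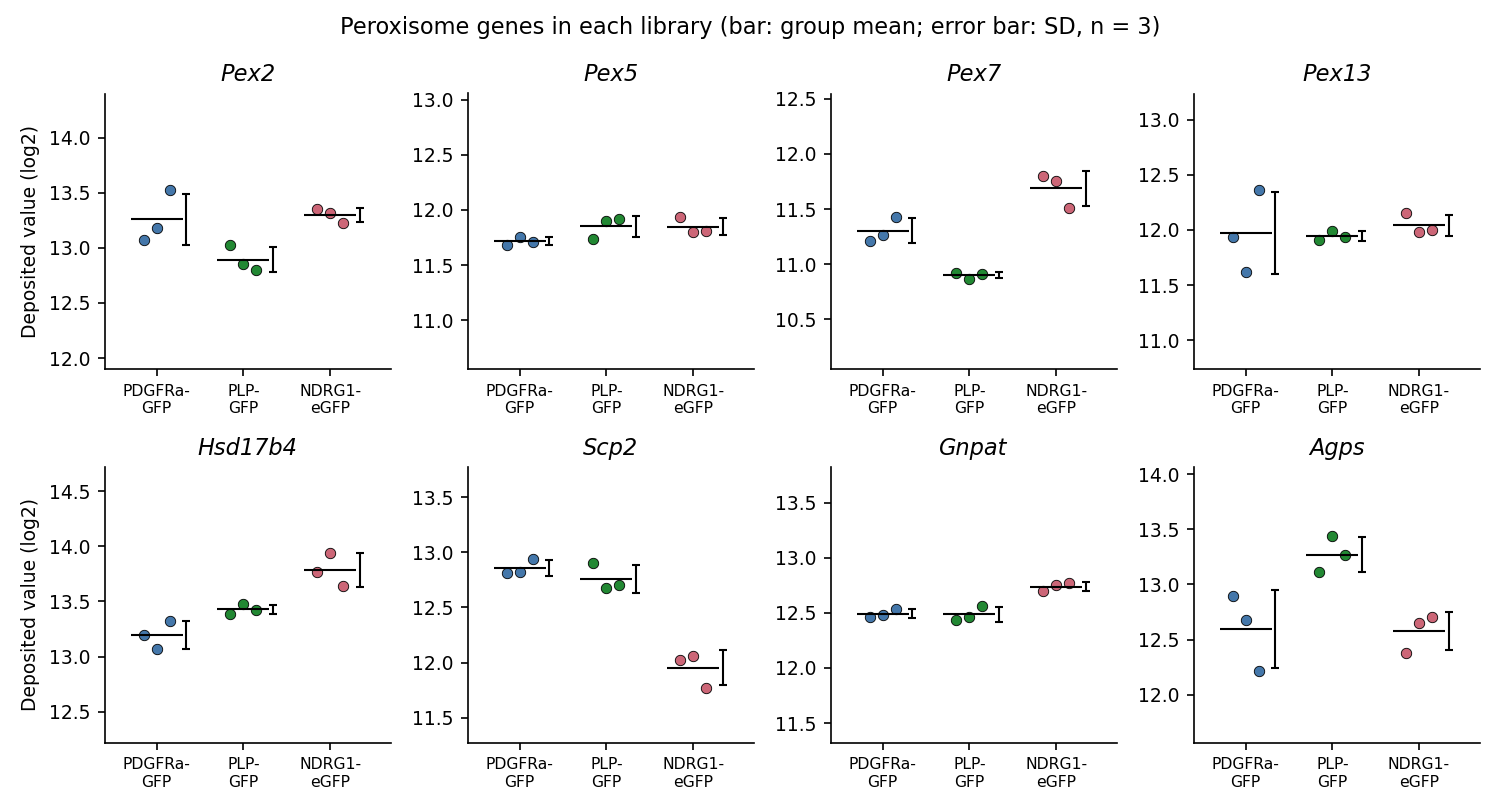
Deposited log2 value of each of the 8 genes (vertical axis, log2, a span of equal height in every panel) in each library by reporter group (horizontal axis). Points are libraries, bars are group means and error bars are SD with n = 3; Pex7 has its 3 groups apart, Scp2 is lowest in NDRG1-eGFP, Hsd17b4 highest there, and Agps highest in PLP-GFP.

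The oxidation genes moved in opposite directions. Hsd17b4 encodes the D-bifunctional protein, which carries out the hydration and dehydrogenation steps of peroxisomal oxidation of very long and branched chains. It lies on the plus strand of chromosome 18 (50128201 to 50196269). Its log2 values were 13.20, 13.07 and 13.32 in PDGFRa-GFP libraries, 13.39, 13.47 and 13.42 in PLP-GFP libraries, and 13.77, 13.94 and 13.64 in NDRG1-eGFP libraries. The groups did not overlap and stood in the order of the stages in the labels.

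Hsd17b4 averaged 13.78 ± 0.15 in NDRG1-eGFP cells and 13.20 ± 0.12 in PDGFRa-GFP cells (SD, n = 3 each). The difference was 0.59 ± 0.12 (SE; limma adjusted p = 0.00763), or 1.50-fold, and it was called without any 1 of the 9 libraries (limma adjusted p of 0.00201 to 0.0360). Against PLP-GFP cells at 13.43 ± 0.04 (SD, n = 3), NDRG1-eGFP cells were higher by 0.35 ± 0.12 (limma adjusted p = 0.0314). That smaller step was lost without PLP-GFP replicate 1 (limma adjusted p = 0.0845), replicate 2 (0.0703) or replicate 3 (0.0930), without NDRG1-eGFP replicate 1 (0.0695) or replicate 2 (0.116), and after recentring on the median ratio (0.0677). It was also lost, at 0.06, with the trend of each library on transcript length removed. PLP-GFP cells were 0.23 ± 0.12 above PDGFRa-GFP cells, which was not called (limma adjusted p = 0.191).

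Scp2 was the gene of the 8 that fell furthest. From separate starts it encodes the thiolase that cleaves branched-chain and bile acid intermediates, and the smaller sterol carrier protein that moves lipids between membranes. It lies on the minus strand of chromosome 4 (108043839 to 108144998), and values per gene do not separate these products. Log2 values of Scp2 were 12.81, 12.82 and 12.94 in PDGFRa-GFP libraries, 12.90, 12.67 and 12.70 in PLP-GFP libraries, and 12.02, 12.06 and 11.77 in NDRG1-eGFP libraries. Every NDRG1-eGFP library lay below every other library, and the PDGFRa-GFP and PLP-GFP libraries overlapped.

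Scp2 averaged 12.86 ± 0.07 in PDGFRa-GFP cells, 12.76 ± 0.12 in PLP-GFP cells and 11.95 ± 0.16 in NDRG1-eGFP cells (SD, n = 3 each). In NDRG1-eGFP cells it fell by 0.80 ± 0.13 on the log2 scale relative to PLP-GFP cells (limma adjusted p = 0.000697), to 0.573 of their level. Relative to PDGFRa-GFP cells it fell by 0.90 ± 0.13 (limma adjusted p = 0.000837), to 0.534 of their level. Both differences were called without any 1 library. PLP-GFP minus PDGFRa-GFP was -0.10, with a 95% interval of -0.38 to 0.18.

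The value of Scp2 is uncertain because much of its sequence is not its own. Of its 50-base transcript windows, 41.4% also occur at another locus, the transcribed pseudogene Scp2-ps2 on chromosome 9, for which the files have no row. Reads from the gene and that copy could be split or lost by the counting, whose rules are not given in the sources used here. Of 674 genes with over 20% shared windows, 46.1% were called lower in NDRG1-eGFP cells than in PLP-GFP cells, with a median log2 fold change of -0.58. Of 7347 genes with none, 19.5% were called lower, with a median of 0.15. Against PDGFRa-GFP cells the shares called lower were 43.3% and 6.90%. The part of shared sequence in the Scp2 result was not tested.

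**Figure D2:**
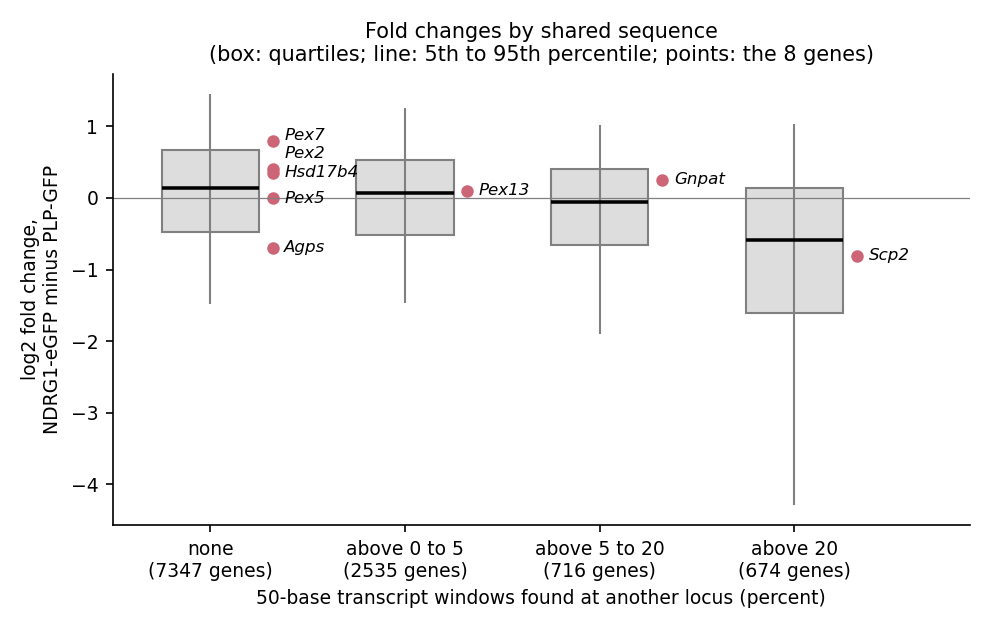
Log2 fold change of NDRG1-eGFP minus PLP-GFP (vertical axis) for all genes with an annotation, in bins of the percent of 50-base transcript windows that also occur at another locus (horizontal axis). Boxes are quartiles with the median, lines run from the 5th to the 95th percentile and points are the 8 genes; Scp2 is the gene of the 8 in the bin above 20%, whose median is -0.58.

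The plasmalogen genes Gnpat and Agps encode enzymes that act one after the other on the inner face of the peroxisomal membrane. Agps makes the ether bond by exchanging an acyl chain for a fatty alcohol, and it enters peroxisomes through Pex7. It lies on the plus strand of chromosome 2 (75832177 to 75931350). Its log2 values were 12.90, 12.68 and 12.21 in PDGFRa-GFP libraries, 13.11, 13.44 and 13.26 in PLP-GFP libraries, and 12.38, 12.65 and 12.70 in NDRG1-eGFP libraries. Every PLP-GFP library lay above all others, and the remaining groups overlapped.

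Agps averaged 12.58 ± 0.17 in NDRG1-eGFP cells and 13.27 ± 0.16 in PLP-GFP cells (SD, n = 3 each). It fell by 0.69 ± 0.18 on the log2 scale in NDRG1-eGFP cells (SE; limma adjusted p = 0.00961), to 0.618 of the PLP-GFP level, and was called without any 1 library (limma adjusted p of 0.000751 to 0.0462). With the trend of each library on transcript length removed, this difference was -0.10 and not called (limma adjusted p = 0.553). In PLP-GFP cells it was 0.67 ± 0.18 above PDGFRa-GFP cells at 12.60 ± 0.35 (SD, n = 3), or 1.60-fold (limma adjusted p = 0.0317). Without PDGFRa-GFP replicate 3, the lowest library, this was 0.48 (limma adjusted p = 0.0304). The call was lost without PDGFRa-GFP replicate 2 (limma adjusted p = 0.0649), PLP-GFP replicate 2 (0.140) or PLP-GFP replicate 3 (0.104), and with the transcript length trend removed (0.111). NDRG1-eGFP minus PDGFRa-GFP was -0.02, with a 95% interval of -0.42 to 0.38. In the values as deposited, PLP-GFP libraries were highest in Agps and lowest in its import receptor Pex7.

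Gnpat attaches the acyl chain on which Agps then acts. It lies on the plus strand of chromosome 8 (124863033 to 124890057). Log2 values of Gnpat were 12.46, 12.48 and 12.54 in PDGFRa-GFP libraries, 12.44, 12.46 and 12.56 in PLP-GFP libraries, and 12.69, 12.75 and 12.77 in NDRG1-eGFP libraries. Every NDRG1-eGFP library lay above every other library, by a small margin.

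Gnpat averaged 12.74 ± 0.04 in NDRG1-eGFP cells and 12.48 ± 0.07 in PLP-GFP cells (SD, n = 3 each), a difference of 0.25 ± 0.10 (SE) with a 95% interval of 0.02 to 0.48. It missed the threshold (limma adjusted p = 0.0664), but was called without PDGFRa-GFP replicate 3 (0.0246) and in the fit of only the groups compared (0.0371). NDRG1-eGFP cells were also 0.25 ± 0.10 above PDGFRa-GFP cells at 12.49 ± 0.04 (SD, n = 3; limma adjusted p = 0.117), which was called without PDGFRa-GFP replicate 3 (limma adjusted p = 0.0447). PLP-GFP minus PDGFRa-GFP was -0.01, with an interval of -0.24 to 0.22. Of its 50-base windows 7.87% are shared with Gm16163, a noncoding transcript that overlaps its start on the same strand, so a small part of its reads cannot be told apart.

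Counted together, 3 of the 8 genes were higher (Pex2, Pex7 and Hsd17b4) and 2 lower (Scp2 and Agps) in NDRG1-eGFP cells than in PLP-GFP cells. The background was 26.1% of all genes higher and 22.2% lower, so these counts are near what all genes gave. The median log2 fold change of the 8 was 0.18, against 0.08 for all genes. In PLP-GFP against PDGFRa-GFP cells, 1 gene was higher (Agps) and none lower, with a background of 8.46% and 8.53%. Pex2 and Pex7 had lower means in PLP-GFP cells but were not called (limma adjusted p of 0.0868 and 0.0580). In NDRG1-eGFP against PDGFRa-GFP cells, 1 was higher (Hsd17b4) and 1 lower (Scp2), with a background of 10.7% and 10.4%. Leaving out PDGFRa-GFP replicate 3 brought the higher genes to 3, with Pex7 and Gnpat added, and leaving out NDRG1-eGFP replicate 3 brought them to 2. Leaving out any 1 of the 9 libraries gave 1 to 4 higher genes in NDRG1-eGFP against PLP-GFP cells and 0 or 1 in PLP-GFP against PDGFRa-GFP cells. No share of all genes is given for the fits without a library.

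Transcript length moved with the comparisons over all genes. In NDRG1-eGFP against PLP-GFP cells the median log2 fold change was 0.86 for transcripts under 1 kb, 0.68 for 1 to 2 kb, 0.25 for 2 to 4 kb, -0.36 for 4 to 8 kb and -0.58 above 8 kb. In PLP-GFP against PDGFRa-GFP cells the order was the reverse at the ends, with medians of -0.64 under 1 kb and 0.21 above 8 kb. The longest annotated transcript has 8099 bases for Pex7 and 7359 for Agps, and those of the others run from 2051 bases for Pex2 to 4146 for Pex13. Annotated coding lengths give another order, since Pex7 has 954 coding bases and Agps 2013. Each of the 8 was therefore also tested with the trend of each library on transcript length, or on coding length, removed.

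Scp2 and Pex7 kept their call in NDRG1-eGFP against PLP-GFP cells under both corrections. Scp2 stood at -1.11 with the transcript length trend removed (limma adjusted p = 3.6e-05) and at -0.83 with the coding length trend removed (limma adjusted p = 0.000420). Pex7 stood at 1.40 (limma adjusted p = 0.000283) and 0.44 (limma adjusted p = 0.00687), so the size of its difference depends on which length is used. Agps, not called with the transcript length trend removed, fell by 0.61 with the coding length trend removed (limma adjusted p = 0.00851). Hsd17b4 likewise had 0.06 (limma adjusted p = 0.673) and 0.50 (limma adjusted p = 0.0111), and Gnpat had 0.05 (limma adjusted p = 0.719) and 0.34 (limma adjusted p = 0.0139). Pex2 was called in neither, at -0.09 (limma adjusted p = 0.506) and 0.04 (limma adjusted p = 0.756).

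Against PDGFRa-GFP cells, Hsd17b4 and Scp2 in NDRG1-eGFP cells were called under both corrections. Hsd17b4 had 0.36 with the transcript length trend removed (limma adjusted p = 0.0348) and 0.52 with the coding length trend removed (limma adjusted p = 0.0196). Scp2 fell by 1.13 (limma adjusted p = 3.7e-05) and by 1.04 (limma adjusted p = 0.000153). Agps in PLP-GFP against PDGFRa-GFP cells had 0.33 (limma adjusted p = 0.111) and 0.50 (limma adjusted p = 0.0493). Pex7 was called with the transcript length trend removed, at -0.72 in PLP-GFP against PDGFRa-GFP cells (limma adjusted p = 0.0338) and at 0.67 in NDRG1-eGFP against PDGFRa-GFP cells (limma adjusted p = 0.0289), and in neither with the coding length trend removed.

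With the transcript length trend removed, 1 of the 8 was higher and 1 lower in NDRG1-eGFP against PLP-GFP cells, against a background of 16% and 17.5%. In PLP-GFP against PDGFRa-GFP cells none was higher and 1 lower (3.57% and 5.73%), and in NDRG1-eGFP against PDGFRa-GFP cells 2 were higher and 1 lower (4.55% and 9.97%). With the coding length trend removed, 3 were higher and 2 lower in NDRG1-eGFP against PLP-GFP cells (20.8% and 21.5%). There was 1 higher and none lower in PLP-GFP against PDGFRa-GFP cells (6.64% and 7.24%), and 1 higher and 1 lower in NDRG1-eGFP against PDGFRa-GFP cells (5.65% and 11.3%). The part of transcript length in these results was not tested beyond these fits.

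**Figure D3:**
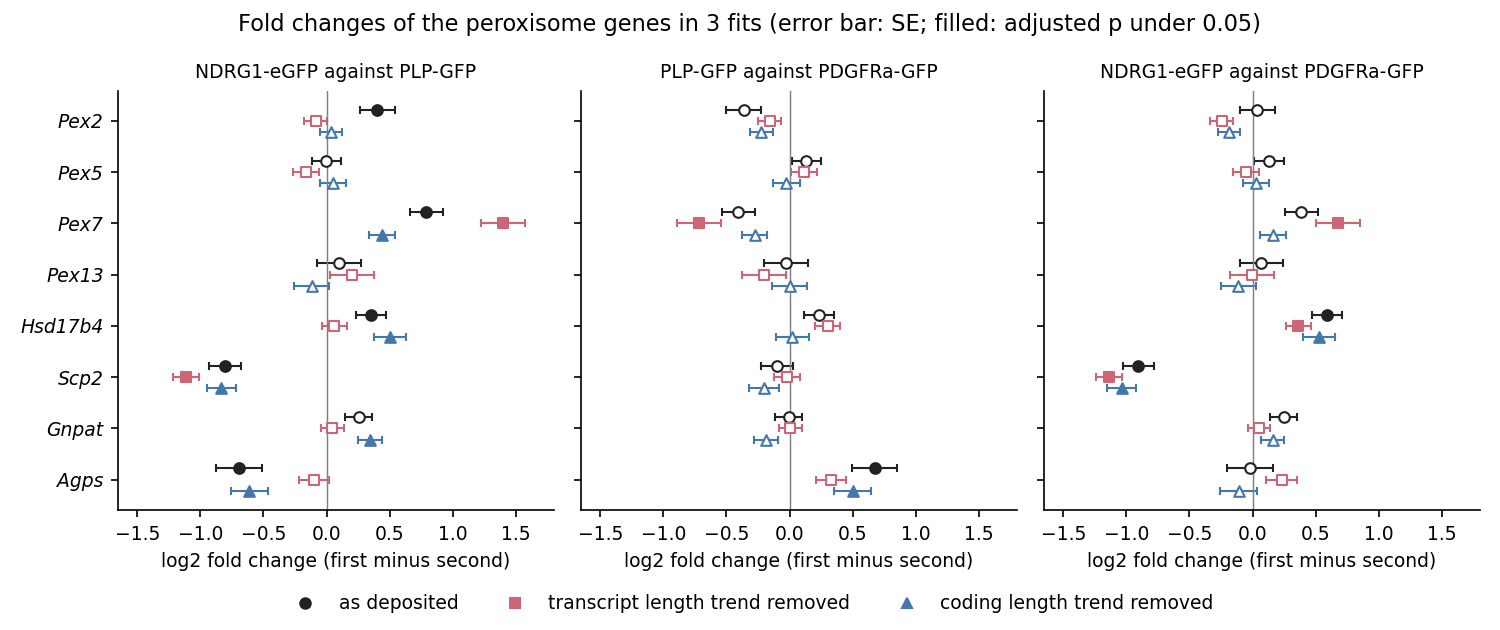
Log2 fold changes of the 8 genes (horizontal axis, first group minus second) in the 3 comparisons, in the fit of the deposited values and with the transcript or coding length trend removed. Error bars are SE and filled symbols have an adjusted p under 0.05; in NDRG1-eGFP against PLP-GFP, Scp2 and Pex7 are filled in all 3 fits, while Agps and Hsd17b4 are open with the transcript length trend removed.

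Genes whose pattern over the 9 libraries was most like that of a called gene were found after centring each gene on its own mean, among genes of similar level. Closest to Pex7 was Sri, a calcium-binding protein gene, with a root mean square difference of 0.04 log2 units, then Psmc5, a proteasome ATPase subunit gene, with 0.05. Closest to Pex2 were the proteasome subunit gene Psma1 (0.04) and the trafficking complex gene Trappc3 (0.05). Hsd17b4 was most like Sdha, a subunit of succinate dehydrogenase (0.07), and Serinc3 (0.07). Scp2 was most like the ubiquitin-conjugating enzyme gene Ube2d3 (0.09) and the poly(A)-binding protein gene Pabpc1 (0.10). Agps was most like Hdlbp, an RNA-binding protein gene (0.05), and the DNA ligase gene Lig3 (0.09). Among these 10 genes none is in the peroxisome lists.

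The 8 genes were set beside 80 other peroxisome genes from 7 lists. In NDRG1-eGFP against PLP-GFP cells, 33 of the 80 were higher (41.2%, against 26.1% of all genes) and 13 lower (16.2%, against 22.2%), with a median log2 fold change of 0.34, against 0.08 for all genes. The count of higher genes ran from 24 to 39 and that of lower genes from 4 (without PLP-GFP replicate 2) to 15 when 1 library was left out. Without PLP-GFP replicate 3, 5 were lower. With the transcript length trend removed 19 were higher and 6 lower, with a median of 0.10 and a background of 16% and 17.5%. With the coding length trend removed 28 were higher and 14 lower, with a median of 0.21 and a background of 20.8% and 21.5%. In PLP-GFP against PDGFRa-GFP cells 5 were higher and 11 lower (6.25% and 13.8%, against 8.46% and 8.53% of all genes), and in NDRG1-eGFP against PDGFRa-GFP cells 12 were higher and 6 lower (15% and 7.5%, against 10.7% and 10.4%). These counts also depended on single libraries: the 12 became 27 without PDGFRa-GFP replicate 3, 5 without PDGFRa-GFP replicate 2 or NDRG1-eGFP replicate 1, and 6 without NDRG1-eGFP replicate 2. The 5 became 9 without PDGFRa-GFP replicate 3, 2 without PLP-GFP replicate 1 and 0 without PDGFRa-GFP replicate 2, PLP-GFP replicate 2 or PLP-GFP replicate 3. The 11 became 5 without PDGFRa-GFP replicate 2, 2 without PLP-GFP replicate 2, 4 without PLP-GFP replicate 3 and 7 without NDRG1-eGFP replicate 2. Shares of all genes called without each library are not given, so a shift of all genes cannot be told from one of this list.

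Of 17 import factors, or peroxins, 16 were measured, and 8 were higher and 2 lower in NDRG1-eGFP cells than in PLP-GFP cells (50% and 12.5%, against 26.1% and 22.2% of all genes), with a median of 0.42. Removing the transcript length trend left 6 higher and 1 lower, with a median of 0.21, against a background of 16% and 17.5% of all genes. Removing the coding length trend left 6 higher and 2 lower, with a median of 0.24, against 20.8% and 21.5%. Pex14, which docks receptors together with Pex13, averaged 11.74 ± 0.12 in NDRG1-eGFP cells and 11.06 ± 0.04 in PLP-GFP cells (SD, n = 3 each) and was higher by 0.67 ± 0.13 (SE; limma adjusted p = 0.00232). Pex16, needed to build the membrane, was higher by 1.09 ± 0.13 (limma adjusted p = 0.000182), and Pex19, the chaperone of membrane proteins, by 0.75 ± 0.16 (limma adjusted p = 0.00362). Pex5l, a brain relative of Pex5, fell by 1.17 ± 0.19 (limma adjusted p = 0.000750). Pex5 and Pex13 were thus among the 6 measured peroxins not called in this comparison. In PLP-GFP against PDGFRa-GFP cells 1 peroxin was higher and 1 lower, and in NDRG1-eGFP against PDGFRa-GFP cells 2 were higher and 1 lower, shares near those of all genes.

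Of 23 oxidation genes 19 were measured, Hsd17b4 and Scp2 among them, and 6 were higher and 4 lower in NDRG1-eGFP cells than in PLP-GFP cells (31.6% and 21.1%, near the 26.1% and 22.2% of all genes). Removing the transcript length trend left 2 higher and 3 lower of the 19, against a background of 16% and 17.5% of all genes. Removing the coding length trend left 6 higher and 4 lower, against 20.8% and 21.5%. Acaa1a, the straight-chain thiolase that enters through Pex7, was higher by 1.08 ± 0.16 (SE; limma adjusted p = 0.000455) in NDRG1-eGFP cells than in PLP-GFP cells, opposite to the thiolase gene Scp2. It fell by 1.30 ± 0.16 in PLP-GFP against PDGFRa-GFP cells (limma adjusted p = 0.00136), with 16.2% of its windows shared. Its copy Acaa1b fell by 6.64 in NDRG1-eGFP against PLP-GFP cells, with 35.5% shared. The NDRG1-eGFP values of Acaa1b were 1.55, 2.05 and 1.29, near the lowest value of all genes (0.29). In NDRG1-eGFP against PDGFRa-GFP cells Acaa1b fell by 6.31, while Acaa1a was at -0.22 and not called. Reads could be split between the copies, which was not tested. Phyh, another cargo of Pex7, was higher by 0.67 ± 0.14 in NDRG1-eGFP cells than in PDGFRa-GFP cells (limma adjusted p = 0.00841). It was not called there with the transcript length trend removed (0.39, limma adjusted p = 0.123), but was with the coding length trend removed (0.45, limma adjusted p = 0.0405).

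All 11 ether lipid genes were measured, and 3 were higher and 3 lower in NDRG1-eGFP cells than in PLP-GFP cells (27.3% each, near the 26.1% and 22.2% of all genes), with a median of 0.25. There were 3 higher and 1 lower with the transcript length trend removed, against a background of 16% and 17.5% of all genes. With the coding length trend removed 4 were higher and 3 lower, against 20.8% and 21.5%. Dhrs7b, which reduces the product of Agps, was higher by 1.2 ± 0.22 (SE; limma adjusted p = 0.00182) in NDRG1-eGFP cells than in PLP-GFP cells and fell by 0.78 ± 0.22 in PLP-GFP against PDGFRa-GFP cells (limma adjusted p = 0.0398). Both calls of Dhrs7b held with the transcript length trend removed. Chpt1 and Ept1, which add the head groups, fell by 0.97 ± 0.20 and 0.51 ± 0.14 in NDRG1-eGFP against PLP-GFP cells (limma adjusted p of 0.00271 and 0.0125). With the transcript length trend removed Chpt1 was still called, at -0.69, while Ept1 was 0.05 and not called (limma adjusted p = 0.825). With the coding length trend removed both were called, at -1.19 for Chpt1 and -0.74 for Ept1 (limma adjusted p of 0.00116 and 0.00157).

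The remaining lists held no member. The 20 measured of 22 peroxide and matrix enzymes had 13 higher and 2 lower in NDRG1-eGFP cells than in PLP-GFP cells (65% and 10%, against 26.1% and 22.2% of all genes), with a median of 0.57. There were 7 higher and 1 lower with the transcript length trend removed, with a median of 0.22, against a background of 16% and 17.5%. With the coding length trend removed 10 were higher and 2 lower, with a median of 0.37, against 20.8% and 21.5%. The largest rises were 1.67 for Mvk and 1.48 for Pmvk, genes of the mevalonate pathway, and both were called with either length trend removed. Cat, the catalase gene, was higher by 0.51 ± 0.14 in NDRG1-eGFP against PLP-GFP cells and by 0.59 ± 0.14 in NDRG1-eGFP against PDGFRa-GFP cells. It was called in neither with the transcript length trend removed (0.19 and 0.36, limma adjusted p of 0.363 and 0.151). With the coding length trend removed Cat was called in both, at 0.46 and 0.45 (limma adjusted p of 0.0167 and 0.0373). Prdx1, of the same list, fell by 0.42 ± 0.15 and 0.98 ± 0.15 in these comparisons (limma adjusted p of 0.0440 and 0.00179). Both calls of Prdx1 held with either length trend removed. The 11 measured of 12 membrane transport genes had 3 higher and 1 lower, the 6 measured of 7 division genes 3 higher and 0 lower, and the 7 measured of 11 regulators of the PPAR system 1 higher and 3 lower in NDRG1-eGFP cells than in PLP-GFP cells, against the same background. These lists had 1 and 0, 2 and 0, and 0 and 1 higher and lower with the transcript length trend removed, against 16% and 17.5% of all genes. They had 3 and 3, 2 and 0, and 1 and 2 with the coding length trend removed, against 20.8% and 21.5%. Among the regulators, the coactivator gene Ncoa1 fell by 2.23 ± 0.23, the receptor gene Rxra by 0.86 ± 0.26 and Ncor1 by 0.42 ± 0.14. The receptor gene Rxrb was higher by 0.35 ± 0.12. With the transcript length trend removed Ncoa1 was still called. Rxra (-0.56, limma adjusted p = 0.0996), Ncor1 (0.18, 0.345) and Rxrb (0.04, 0.806) were not. With the coding length trend removed Ncoa1, Rxra (-0.98, limma adjusted p = 0.0136) and Rxrb (0.30, 0.048) were called, and Ncor1 (0.32, 0.142) was not.

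**Figure D4:**
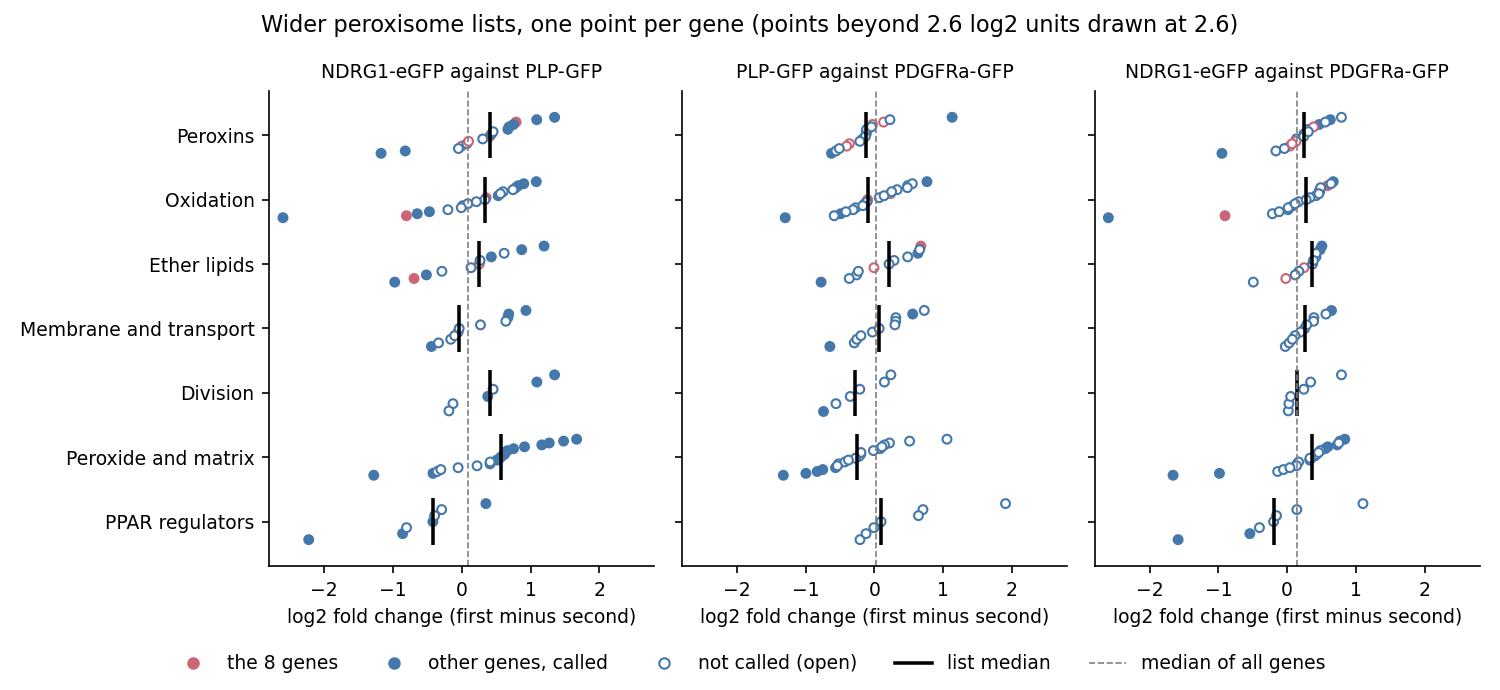
Log2 fold change of every measured gene of the 7 peroxisome lists (horizontal axis, first group minus second) in the 3 comparisons, one point per gene, with Acaa1b, beyond 2.6 log2 units, drawn at the edge. Thick bars are list medians and the dashed line is the median of all genes; in NDRG1-eGFP against PLP-GFP the peroxide and matrix list has its median at 0.57 and the PPAR regulators at -0.42, against 0.08 for all genes.

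Markers of some other cells moved with the same comparisons. The 9 measured of 10 fibroblast markers held 0.0137% to 0.0295% of the summed linear value in the PDGFRa-GFP group, 0.000363% to 0.000943% in the PLP-GFP group and 0.00696% to 0.0220% in the NDRG1-eGFP group. Of them 8 were higher in NDRG1-eGFP cells than in PLP-GFP cells and 8 lower in PLP-GFP cells than in PDGFRa-GFP cells. The 11 measured of 12 microglial markers made up 0.0105% to 0.0147% in NDRG1-eGFP libraries and 0.00504% to 0.00746% in PLP-GFP libraries, and 7 were higher in NDRG1-eGFP cells. The 12 immediate early genes, which respond to cell isolation, held 0.0255% to 0.369% in the PDGFRa-GFP group, 0.0224% to 0.0245% in the PLP-GFP group and 0.0491% to 0.404% in the NDRG1-eGFP group, and 10 were higher in NDRG1-eGFP cells. No marker of these lists was at 0, but neither was any other gene, since the lowest value of all was 0.29. Of the fibroblast markers, 6 had a mean below 5 on the log2 scale in PLP-GFP cells. Of 10 astrocyte markers 0 were higher and 1 lower in NDRG1-eGFP cells than in PLP-GFP cells, with a median of -0.02. Of the 6 measured of 8 neuron markers and the 2 measured of 6 endothelial markers, none was called there. In PLP-GFP against PDGFRa-GFP cells 1 of the 2 endothelial markers was higher, opposite to the fibroblast list. The fibroblast, microglial and immediate early list medians moved in the same direction as Pex2 and Pex7 in both comparisons with PLP-GFP cells. In NDRG1-eGFP against PDGFRa-GFP cells the fibroblast median was -0.42 with none called, while Pex7 was 0.38 higher, also not called. The microglial and immediate early medians there were 0.75 and 0.38. The part of these lists in the results for the 8 genes was not tested.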

How the data were processed

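RNA had been sequenced from 9 libraries of sorted mouse brain cells. BWA, DESeq2 1.2.5 and the build mm10 are listed in the submitters' processing notes, with no role given. The authors deposited 1 normalized value per gene and library; from their range (0.29 to 21.9) the values were taken as log2 values, though neither the log base nor the normalization is given in the sources used here. The 8 genes and all lists were chosen with earlier results of these data known. The planned test was limma-trend, on log2(value + 1) unless the values were already logarithms, so the deposited log2 values were used as they stand. All 9 libraries entered 1 limma fit (version 3.58.1, R 4.3.3) with a term per group; tests were two-sided and adjusted over all 11315 genes. Requiring a value of 1 in 3 libraries removed 0 genes. An exact permutation test of 3 libraries against 3 cannot give p under 0.1, so none was used. Named genes were the 8, up to 4 called genes per list and comparison with the smallest adjusted p (those given were picked from these by role, and a gene so named may be given in another comparison), and the 2 most alike genes per called member within 2 log2 units of its mean. Transcript and coding lengths, positions and shared 50-base windows came from GENCODE M21 on GRCm38 (11272 genes matched), and promoters from RefSeq. Alternatives were recentring by the median ratio, no filter, a mean of at least 8, adding 0.1 or 5 to the linear values, a replicate block, only the groups compared, a threshold of 0.01 on the adjusted p, a least log2 fold change of 1, robust empirical Bayes, removing the transcript length trend, leaving out genes with over 5% shared windows, leaving out each library and, chosen after seeing the data, removing the coding length trend. Fits were tested on simulated data.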

Additional observations from a re-analysis of the deposited data

How the results depend on the processing

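Limits: groups hold 3 libraries, depth is unknown, and labels do not tie replicate numbers to animals. The replicate numbers did not pair the libraries (correlations of deviations from -0.23 to 0.09, and 1 of 9 libraries best matched by its own number). With the replicate block, 1 of the 8 genes was higher in NDRG1-eGFP against PLP-GFP cells and 0 in PLP-GFP against PDGFRa-GFP cells, and the 80 other peroxisome genes gave 0 higher and 5 lower in PLP-GFP against PDGFRa-GFP cells and 4 higher in NDRG1-eGFP against PDGFRa-GFP cells.

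Counts that moved by over 1.5 times were these, with the cause not tested where the setting does not itself show it. For settings other than the deposited values and the length fits, the replicate block included, no share of all genes is given. A shift of all genes under such a setting cannot be told from one of the peroxisome genes. Among the 8 genes, higher genes in NDRG1-eGFP against PLP-GFP cells (3 as deposited) were 1 after recentring, 1 with the transcript length trend removed, 1 at an adjusted p under 0.01, 0 at a log2 fold change of at least 1, and 1 to 4 without 1 library. Lower genes there (2) were 1 with the transcript length trend removed, 1 without shared genes, which drops Scp2, and 0 at a log2 fold change of at least 1. Higher genes in PLP-GFP against PDGFRa-GFP cells (1) were 0 with only the groups compared, with the transcript length trend removed, at a log2 fold change of at least 1 and at an adjusted p under 0.01, and 0 to 1 without 1 library; lower genes there (0) were 1 after recentring and 1 with the transcript length trend removed, Pex7 in both. Higher genes in NDRG1-eGFP against PDGFRa-GFP cells (1) were 2 with the transcript length trend removed, 0 at a log2 fold change of at least 1 and 1 to 3 without 1 library; lower genes there (1) were 0 without shared genes and 0 at a log2 fold change of at least 1.

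Among the 80 other genes, NDRG1-eGFP against PLP-GFP cells gave 33 higher, against 19 with the transcript length trend removed, 9 at a log2 fold change of at least 1, 21 at an adjusted p under 0.01 and 24 to 39 without 1 library; 13 lower became 6, 4, 4 and 4 to 15 under the same settings. PLP-GFP against PDGFRa-GFP cells gave 5 higher, against 2 with only the groups compared, 1 with the transcript length trend removed, 1 at a log2 fold change of at least 1, 0 at an adjusted p under 0.01 and 0 to 9 without 1 library; 11 lower became 6, 5, 2, 2 and 2 to 13. NDRG1-eGFP against PDGFRa-GFP cells gave 12 higher, against 5, 6, 0, 4 and 5 to 27 under those settings; 6 lower became 3 at a log2 fold change of at least 1, 3 without shared genes and 5 to 8 without 1 library.

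Signs turned in differences that were not called, except Pex2 in NDRG1-eGFP against PLP-GFP cells, which was -0.086 with the transcript length trend removed. In that comparison Pex5 was 0.053 and Pex13 -0.12 with the coding length trend removed, and Pex5 ran from -0.059 to 0.030 without 1 library. In PLP-GFP against PDGFRa-GFP cells Pex5 was -0.025 and Pex13 0.0011 with the coding length trend removed and Gnpat 0.0059 with the transcript length trend removed; without 1 library Pex13 ran from -0.21 to 0.17 and Gnpat from -0.045 to 0.017. In NDRG1-eGFP against PDGFRa-GFP cells, Pex2 was -0.061 after recentring, -0.24 with the transcript and -0.19 with the coding length trend removed, and Pex13 -0.029, -0.0025 and -0.11. With the transcript length trend removed, Pex5 was -0.049 and Agps 0.23 there; without 1 library Pex2 ran from -0.053 to 0.17, Pex13 from -0.11 to 0.27 and Agps from -0.21 to 0.13.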
